A study of Mus musculus with 97 samples.

Results

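Cdk5r1-MADM cortices hold sparse Cdk5r1-mutant cells in an otherwise heterozygous cerebral cortex, and the libraries of these green cells at embryonic day (E)16 were compared with those at E13 to describe the maturation of mutant cells across genes. Members were chosen by the deposited genotype and age, with at least 50% of reads uniquely aligned and at least 10000 reads on genes. This kept 13 of the 16 Cdk5r1-MADM samples of these ages, 6 of 8 at E13 and 7 of 8 at E16, in a series of 97 samples. E13 replicates 2 and 5 were left out with 2243 and 2610 reads on genes, and E16 replicate 5 with 22.4% of its reads uniquely aligned. All mice were of strain CD1. Cdk5r1-MADM animals carry MADM-11 GT on the first and TG together with a Cdk5r1 deletion on the other copy of chromosome 11, plus Emx1-Cre (MADM-11 GT/TG,Cdk5r1;Emx1-Cre). For comparison, control-MADM (8 libraries at E13 and 12 at E16), with MADM-11 GT/TG and the same Emx1-Cre, has no deletion. In KO-Cdk5r1-MADM (5 and 11 libraries), with GT,Cdk5r1 over TG,Cdk5r1 at MADM-11 and again Emx1-Cre, all cells carry the deletion on both copies. Emx1-Cre is active in the progenitors of the dorsal telencephalon, so that MADM labeling is limited to projection neurons, cortical glia and their progenitors. Each library is RNA from green cells sorted from the cortex of an individual animal.

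The product of Cdk5r1, p35, binds and activates the kinase CDK5, and mice without p35 are known for neurons that fail to migrate past those born before them. In the embryonic cortex radial glia divide at the ventricle, give rise to intermediate progenitors and neurons, and make deep layer neurons earlier than upper layer neurons and glia. Newborn neurons leave the cell cycle, migrate along radial glial fibers to the cortical plate, and there grow axons, dendrites and synapses.

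The share of aligned reads was alike in the 13 libraries, whereas depth and the spread of reads over genes differed between the ages. Between 4362937 and 6499949 reads fell on genes at E13 (median 5375761.5) and between 2768307 and 5267196 at E16 (median 4476377; exact permutation p = 0.0408). The ranges overlapped, and the E16 libraries were on average shallower. Genes detected ranged from 19825 to 21528 at E13 (median 20474) and from 19089 to 20190 at E16 (median 19986; exact permutation p = 0.0338). Uniquely aligned reads made up 70.8 to 74.9% at E13 (median 72.3%) and 69.7 to 74.0% at E16 (median 73.1%; exact permutation p = 0.935). The 100 genes with the most reads held 16.9 to 18.7% of gene reads at E13 (median 18%) and 18.9 to 21.5% at E16 (median 19.5%; exact permutation p = 0.00117), without overlap. E13 replicates 4 and 8 and E16 replicate 7 stood apart by high markers of cells outside the Emx1-Cre lineage, and E16 replicate 3 by low erythroid markers. Without the 3 libraries with high markers, an alternative chosen after seeing the data, 3511 genes were higher and 3590 lower at E16, against 3750 and 3885 with them. E13 replicates 6, 7 and 8 had reads on Gm28438 and none on the mitochondrial gene mt-Nd3, unlike all others, and with this class as a covariate, also chosen after seeing the data, 3247 genes were higher and 3297 lower.

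Age was the largest difference between the libraries. Of 12781 genes tested for differential expression (DEGs when called), 3750 were higher at E16 (29.3%) and 3885 were lower (30.4%; edgeR quasi-likelihood F test, Benjamini-Hochberg padj < 0.05). The median log2 fold change of all genes tested was -0.04, that of DEGs called higher 0.83 and that of DEGs called lower -0.70. Of the 12781 tested genes, 1527 were DEGs higher (11.9%) and 1189 DEGs lower (9.3%) by a log2 fold change beyond 1. Counts of called list members below stand beside the shares of 29.3% and 30.4% of all tested genes. The libraries of the ages did not overlap at all for 2221 tested genes that were higher (17.4%) and 2088 that were lower (16.3%). The first principal component held 62.6% of the variance and separated all E13 from all E16 libraries. Each library is a bulk sample, in which fewer cells of a type and less RNA per cell cannot be told apart. Levels are given in CPM, counts scaled to library size and normalized, and not divided by gene length.

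Counts of Cdk5r1, Cdk5 and Cdk5r2 rose with age in the mutant cells. Cdk5r1 ranged from 15.2 to 31.2 CPM at E13 (median 27.8) and 61 to 77 CPM at E16 (median 70). No E16 library was as low as the highest at E13 (log2 fold change 1.46, SE 0.13, padj = 1.89e-09). Only a part of Cdk5r1 is deleted, and counts were taken over the whole gene, including what is not deleted. The study reported almost no Cdk5r1 expression in mutant cells, and its methods describe a separate count of reads over the deleted stretch. Neither the position of the reads within the gene nor p35 was analysed here. Cdk5, the kinase, was measured at 83.8 to 97.7 CPM at E13 (median 88.7) and 145 to 196 CPM at E16 (median 177). Its ages were separate too (log2 fold change 0.94, SE 0.08, padj = 4.96e-10). Cdk5r2, which encodes p39, the related activator, was at 2.55 to 5.72 CPM at E13 (median 4.13) and 17.4 to 33.5 CPM at E16 (median 20.6), with all E16 libraries above all E13 libraries (log2 fold change 2.50, SE 0.21, padj = 6.06e-10). Of 42 tested genes of the p35/CDK5 pathway, including known substrates, 23 rose and 6 fell (median 0.35, against -0.04 for all genes). Crmp1 and Dpysl3, which encode collapsin response mediators phosphorylated by CDK5, rose without overlap (log2 fold changes 1.66 and 1.12), whereas Nde1, a dynein regulator, and Rnd2, a small GTPase of migrating neurons, fell (-1.40 and -1.05). Nes, the intermediate filament of progenitors, was measured at 311 to 429 CPM at E13 (median 346) and 86.9 to 138 CPM at E16 (median 103), with all E16 libraries the lower (log2 fold change -1.75, SE 0.11, padj = 1.09e-11).

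The clearest single changes were in genes of neurons and of progenitors. Mpped1, a phosphodiesterase gene of cortical neurons, had the smallest padj, with 138 to 192 CPM at E13 (median 171) and 1128 to 1443 CPM at E16 (median 1237). The E16 libraries lay far above all at E13 (log2 fold change 2.90, SE 0.08, padj = 4.13e-17). Mapt, which encodes the axonal microtubule protein tau, a CDK5 substrate, ranged from 94.2 to 144 CPM at E13 (median 131) and 1101 to 1498 CPM at E16 (median 1213). Here too the ages were separate (log2 fold change 3.32, SE 0.10, padj = 1.13e-16). Among the other 8 genes with the smallest padj on the higher side were Sla (an adaptor protein, 4.63), Nav2 (a neuron navigator, 3.21), Igsf3 (an adhesion protein, 2.47), Prkar1b (a regulatory subunit of protein kinase A, 3.58), Gpr85 (an orphan receptor, 3.03) and Gpm6a (a neuronal membrane glycoprotein, 2.21). On the lower side they included Igf2bp1, an RNA-binding protein of fetal tissue, and Cdca7, a cell cycle gene (-1.96 and -1.91).

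**Figure D1:**
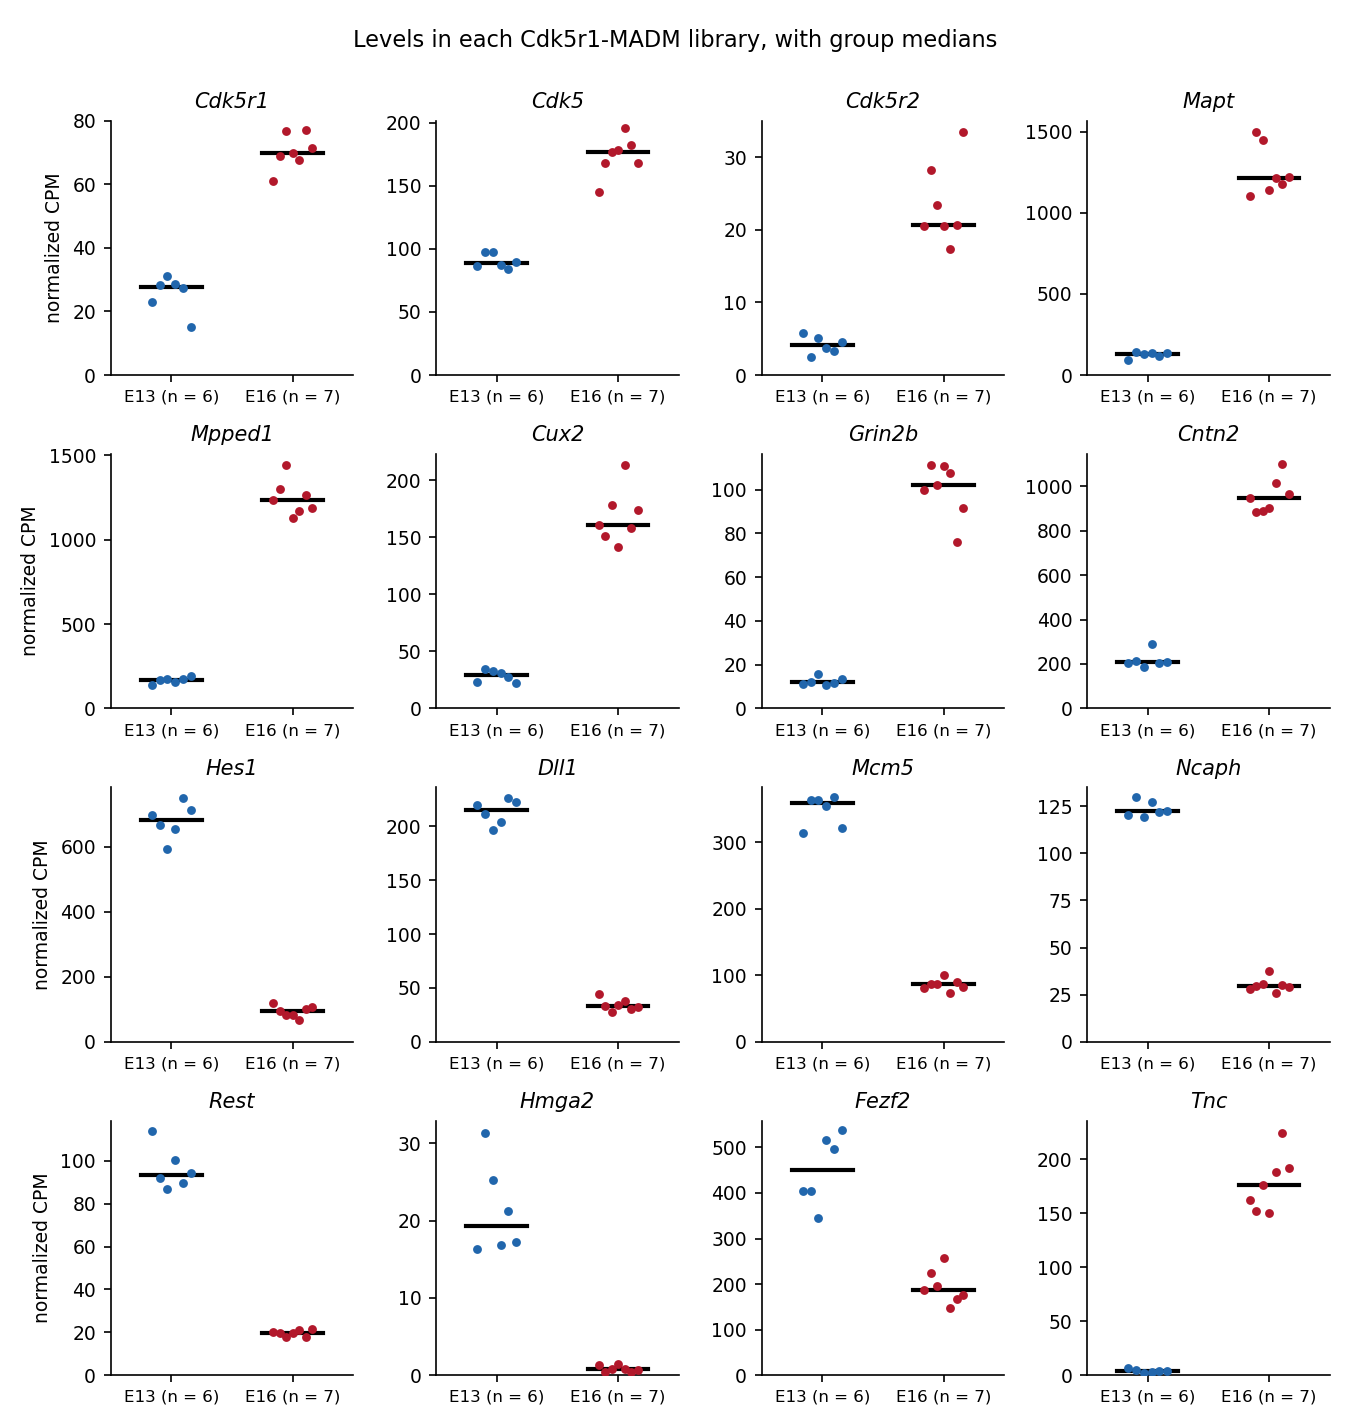
Normalized CPM (vertical axes) of 16 genes in each Cdk5r1-MADM library at E13 and E16, with points for libraries and bars for medians. Cdk5r1, Cdk5 and most genes of neurons are higher at E16, and most genes of progenitors and of the cell cycle are lower, with separate ages. Tnc, of radial glia, is higher, and Fezf2, of deep layer neurons, is lower.

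Most genes of radial glia fell. Of 26 tested, 16 fell and 6 rose (median -0.95), and their summed level was 6369 to 7846 CPM at E13 (median 7347) and 4820 and 5667 CPM at E16 (median 4932), without overlap. Hes1, the Notch effector that keeps progenitors dividing, was measured at 594 to 749 CPM at E13 (median 683) and 67 to 119.9 CPM at E16 (median 94.3). All E16 libraries were far below those of E13 (log2 fold change -2.86, SE 0.11, padj = 3.19e-15). Sox9, a transcription factor of radial glia, fell with separate ages (-1.77), and Vim, the intermediate filament gene with the most reads of the list, fell less (-0.60). Against these, Tnc, the matrix glycoprotein tenascin C of outer radial glia and astroglia, was found at 2.34 to 7.04 CPM at E13 (median 3.91) and 149.9 to 225 CPM at E16 (median 177). It rose in every E16 library past every E13 library (log2 fold change 5.42, SE 0.17, padj = 2.77e-16). Slc1a3, a glutamate transporter, and Ptprz1, a receptor phosphatase, both of radial glia and astrocytes, rose as well (1.60 and 2.16).

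Genes of the Notch pathway and of intermediate progenitors fell in most cases. Of 27 Notch genes tested, 15 fell and 4 rose (median -0.75). Dll1, the ligand on newborn neurons and intermediate progenitors, ranged from 196 to 226 CPM at E13 (median 215) and 28 to 44.4 CPM at E16 (median 33.2). No library of E16 reached the E13 range (log2 fold change -2.63, SE 0.09, padj = 5.42e-16). Hey1 and Hes5, both transcriptional effectors of Notch, fell too (-2.80 and -1.58), while Jag2, a ligand, Dner, a neuronal ligand, and Rfng, which modifies Notch receptors, rose (1.81, 1.03 and 1.16). Of 16 genes of intermediate progenitors, 11 fell and 2 rose (median -1.08), with a summed level of 3700 to 4258 CPM at E13 (median 3949) and 1929 to 2339 CPM at E16 (median 2106). Neurog1, a proneural factor, fell by most (-3.63), Btg2, which marks neurogenic divisions, fell (-1.42), and Hes6, with the most reads of the list, fell by less (-0.52). Eomes, which encodes the defining transcription factor TBR2, was measured at 143 to 253 CPM at E13 (median 242) and 114 to 179 CPM at E16 (median 168). The ages overlapped although the test called it lower (log2 fold change -0.47, SE 0.14, padj = 0.00658). Celsr3, a cadherin of axon tracts, and Insm1, a zinc finger factor, were the 2 that rose (1.50 and 0.60).

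Genes of DNA replication and mitosis fell almost without exception. Of 46 tested genes of DNA replication 45 fell and none rose (median -1.53), and all 57 tested genes of mitosis fell (median -1.62). The summed level of the mitosis genes was 6269 to 6864 CPM at E13 (median 6576) and 1867 to 2625 CPM at E16 (median 2455), and that of the replication genes 6000 to 7276 CPM (median 6779) and 2376 to 2655 CPM (median 2501). Mcm5, a subunit of the replicative helicase, ranged from 315 to 368 CPM at E13 (median 359) and 73.4 to 100.4 CPM at E16 (median 86.7). All E16 libraries lay below all E13 libraries (log2 fold change -2.02, SE 0.08, padj = 1.34e-15). Its partners Mcm3 and Mcm2 and Tyms, the thymidylate synthase, also fell (-1.94, -1.83 and -1.66). Ncaph, a condensin subunit that compacts mitotic chromosomes, ranged from 119 to 129.8 CPM at E13 (median 122) and 26.1 to 37.7 CPM at E16 (median 29.8), again with separate ages (log2 fold change -2.04, SE 0.09, padj = 1.43e-14). Birc5 and Cdca8, of the chromosomal passenger complex, and Ube2c, the ubiquitin carrier of the anaphase promoting complex, fell alike (-1.69, -1.58 and -1.59). Of 20 genes of cell cycle exit and G1 control 14 fell and 1 rose (median -0.71), among them Ccnd2, a cyclin of cortical progenitors, E2f2 and E2f7, transcription factors, and Cdk4, the G1 kinase (-1.67, -2.89, -2.37 and -0.48). The gene that rose was Cdkn2d, an inhibitor of CDK4 (0.42).

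Promoters of the mitosis and replication lists were searched for motifs long known from cell cycle genes. In windows of 300 bases at RefSeq promoters (GRCm38.p6), matched by name to 9591 of the tested genes, the CHR motif TTTGAA on either strand was found for 35 of 48 mitosis genes (72.9%), for 5 of 37 replication genes (13.5%) and for 13.6% of all tested genes. The CCAAT box stood in the promoters of 35 of 48 mitosis genes (72.9%), of 22 of 37 replication genes (59.5%) and of 43.4% of all tested genes, and both motifs together in 30 of 48 (62.5%) and 6.92%. An E2F site, counted as TTTCCCGC, TTTGGCGC, TTTCGCGC or TTTGCCGC on either strand, was found for 15 of 37 replication genes (40.5%), for 5 of 48 mitosis genes (10.4%) and for 5% of all tested genes. Of all 32851 windows, 17.9% held a CHR, 37.4% a CCAAT box and 2.26% an E2F site, and CHR and CCAAT matches overlapped in 47 windows. Among genes called higher 12.1% had a CHR and 3.65% an E2F site, and among genes called lower 16.6% and 7.49%. A match is a description, not a site or a cause. The promoters of Cdca8 (chr4:124936868-124937167, minus strand) and Cdc20 (chr4:118437294-118437593, minus strand), which encodes an activator of the anaphase promoting complex, are printed because they show the CHR, and those of Mcm5 (chr8:75109259-75109558, plus strand) and Mcm3 (chr1:20820263-20820562, minus strand) because they show the E2F site; on each list these were the genes with the smallest padj among those with the motif, chosen after values were seen. Capitals mark the CHR in the first pair and the E2F matches, which overlap each other in Mcm5, in the other pair.
Cdca8: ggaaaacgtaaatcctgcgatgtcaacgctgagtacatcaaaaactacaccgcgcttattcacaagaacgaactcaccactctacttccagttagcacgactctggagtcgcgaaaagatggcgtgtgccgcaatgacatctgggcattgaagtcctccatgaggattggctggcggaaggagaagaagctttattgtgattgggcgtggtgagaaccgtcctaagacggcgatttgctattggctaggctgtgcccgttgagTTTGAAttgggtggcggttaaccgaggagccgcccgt
Cdc20: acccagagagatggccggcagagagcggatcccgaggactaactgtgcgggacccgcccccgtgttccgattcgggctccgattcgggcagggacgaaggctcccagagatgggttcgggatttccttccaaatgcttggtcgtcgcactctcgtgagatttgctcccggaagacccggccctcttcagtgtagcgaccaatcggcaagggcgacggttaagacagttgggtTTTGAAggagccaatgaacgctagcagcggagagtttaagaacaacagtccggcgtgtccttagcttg
Mcm5: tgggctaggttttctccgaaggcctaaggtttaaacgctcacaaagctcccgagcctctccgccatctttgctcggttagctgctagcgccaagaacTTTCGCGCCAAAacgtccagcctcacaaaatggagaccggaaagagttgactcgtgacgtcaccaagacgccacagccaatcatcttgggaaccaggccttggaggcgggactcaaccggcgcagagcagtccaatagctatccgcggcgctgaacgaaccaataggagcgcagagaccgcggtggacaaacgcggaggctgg
Mcm3: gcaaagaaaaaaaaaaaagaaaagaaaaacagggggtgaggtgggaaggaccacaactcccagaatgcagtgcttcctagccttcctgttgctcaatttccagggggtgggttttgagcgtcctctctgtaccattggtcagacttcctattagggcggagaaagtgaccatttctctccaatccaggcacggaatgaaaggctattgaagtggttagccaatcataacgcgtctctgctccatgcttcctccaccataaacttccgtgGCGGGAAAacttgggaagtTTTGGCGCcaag

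Genes that mark early progenitors fell more often than they rose, and those of late progenitors the reverse. Of 16 early genes 9 fell and 2 rose (median -0.94), and of 23 late genes 16 rose and 7 fell (median 1.57). Hmga2, a chromatin protein of young stem cells, was measured at 16.3 to 31.4 CPM at E13 (median 19.3) and 0.437 to 1.47 CPM at E16 (median 0.774). It was nearly gone in all E16 libraries (log2 fold change -4.67, SE 0.28, padj = 1.53e-12). Lin28b, its known partner in early progenitors, was not tested for its low counts. Crabp2, which binds retinoic acid, fell by a similar amount (-4.66). The early genes that rose, Nr2f2, a nuclear receptor, and Wnt7b, a Wnt ligand, overlapped between the ages (0.69 and 0.37). On the late side Nfix, a nuclear factor I gene, rose (1.07), whereas its relatives Nfia and Nfib fell (-0.90 and -0.51), as did Fgfr3, a growth factor receptor of radial glia, and Ttyh1, a chloride channel gene (-1.57 and -1.15).

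Wnt pathway genes fell in most cases, 22 of 30, and 3 rose (median -0.87). Tcf7l1, a transcription factor that represses Wnt targets, was found at 88.3 to 158 CPM at E13 (median 137) and 11.6 to 18.2 CPM at E16 (median 13.8), with all E16 libraries the lower (log2 fold change -3.16, SE 0.14, padj = 1.01e-14). Lef1, a further factor of that family, and Fzd9, a receptor, also fell (-2.64 and -2.04), and Dkk3, a secreted relative of Wnt inhibitors, and Rspo3, a Wnt enhancer, rose (1.61 and 0.57). Ctnnb1, which encodes beta-catenin and had the most reads of the list, was not called (log2 fold change 0.06, SE 0.08, padj = 0.488).

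Genes of migrating neurons mostly rose, 19 of 29 with 6 lower (median 0.80), and their summed level was 5211 to 6174 CPM at E13 (median 5711) and 10315 to 11368 CPM at E16 (median 10737). Dcx, the microtubule protein of migrating neurons, ranged from 126 to 182 CPM at E13 (median 146) and 312 to 477 CPM at E16 (median 348). Every E16 library was above the E13 range (log2 fold change 1.33, SE 0.11, padj = 2.64e-09). Cntn2, an adhesion protein of migrating neurons and axons, ranged from 186 to 290.0 CPM at E13 (median 208) and 882 to 1100 CPM at E16 (median 949). Its ages did not overlap either (log2 fold change 2.13, SE 0.09, padj = 1.03e-14). Tubb3, the neuronal tubulin with the most reads of the list, Dclk1, a relative of Dcx, and Plxna4, a semaphorin receptor, rose (1.53, 0.93 and 1.15). Rnd3, a GTPase of neurons starting to migrate, and Nhlh1, a factor of newborn neurons, fell (-2.02 and -2.51).

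Most upper layer genes rose, and more deep layer genes fell than rose. Of 21 upper layer genes 17 rose and 2 fell (median 1.25). Of 19 deep layer genes 5 rose and 9 fell, beside 29.3% and 30.4% of all tested genes. The deep layer median was -0.44, and -0.31 without the 3 that are also markers of other cell types. Cux2, an upper layer homeobox gene, was measured at 21.9 to 34.6 CPM at E13 (median 29.2) and 142 to 214 CPM at E16 (median 161). The E16 libraries lay far above all of E13 (log2 fold change 2.56, SE 0.12, padj = 3.02e-14). Mef2c, a factor of neuronal differentiation, rose also (2.88), and Lhx2, shared with progenitors, and Btg1 were the 2 that fell (-1.17 and -0.73). Fezf2, which specifies subcerebral neurons and is also expressed in early progenitors, was found at 346 to 539 CPM at E13 (median 450.3) and 148 to 258 CPM at E16 (median 187). All E16 libraries lay below those of E13 (log2 fold change -1.22, SE 0.12, padj = 1.46e-07). Bcl11b, its known target in these neurons, had 213 to 342 CPM at E13 (median 283) and 124 to 224 CPM at E16 (median 152), and the ages overlapped (log2 fold change -0.80, SE 0.12, padj = 6.35e-06). Otx1 and Nxph4, of deep layer and subplate neurons, fell (-1.89 and -1.25), and Crym, Ldb2 and Bcl6, also of the deep layer list, rose (3.31, 2.53 and 2.41).

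The cytoskeleton of axons gave the largest rise in reads. Of 46 axon and cytoskeleton genes 38 rose and 4 fell (median 1.26), with 11931 to 14319 CPM at E13 (median 13262) and 28868 to 31767 CPM at E16 (median 29803). Stmn4, a stathmin that binds tubulin, Tubb4a, a brain tubulin, and Tuba1a, the tubulin with the most reads, rose without overlap (2.61, 2.39 and 1.29). Tuba4a, a further tubulin, fell (-1.71), and so did Marcks and Cntnap2, with overlapping ages (-0.48 and -0.57). Of 59 axon guidance genes 34 rose and 12 fell (median 0.49). Sema6b, a semaphorin, Ntng2, a netrin relative, and Efnb3, an ephrin, rose (2.43, 1.59 and 1.48), and Efnb1, an ephrin of progenitors, and Rgma, a repulsive cue, fell (-0.80 and -0.80). Robo3, a receptor that delays midline attraction, ranged from 5.47 to 11.2 CPM at E13 (median 7.84) and 0 to 0.228 CPM at E16 (median 0), and was at 0 in 6 of 7 E16 libraries.

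Synaptic genes rose on both sides of the synapse. Of 56 synaptic vesicle genes 43 rose and 5 fell (median 1.16), and of 52 postsynaptic genes 43 rose and 5 fell (median 1.15). The vesicle genes summed to 2423 to 2764 CPM at E13 (median 2647) and 4988 to 5630 CPM at E16 (median 5220), and the postsynaptic genes to 1131 to 1223 CPM (median 1167) and 2517 to 3031 CPM (median 2616). Grin2b, the glutamate receptor subunit of young synapses, was measured at 10.9 to 15.7 CPM at E13 (median 11.9) and 76.1 to 111 CPM at E16 (median 102). The ages were far apart (log2 fold change 3.00, SE 0.12, padj = 3.26e-15). Camk2b, a calcium-dependent kinase, Shank1, a scaffold, and Dlgap4, a further scaffold protein, rose (3.68, 1.81 and 1.00). Rab3a, the vesicle GTPase with the most reads of its list, Syt5, a calcium sensor, and Cplx1, which clamps vesicle fusion, rose (1.53, 2.53 and 2.46). Slc17a7, the vesicular glutamate transporter VGLUT1, was found at 44.4 to 64.7 CPM at E13 (median 52.5) and 26.9 to 40 CPM at E16 (median 33.5), and fell without overlap (log2 fold change -0.66, SE 0.12, padj = 8.17e-05). Others among those that fell were Sypl, Cadps2, Dlg1, Homer2 and the immediate early gene Arc (-0.78, -1.63, -0.94, -0.73 and -1.12).

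Ion channels and receptors for GABA rose with them. Of 54 ion channel and pump genes 43 rose and 2 fell (median 1.39), and all 11 tested GABA receptor genes rose (median 2.08). Scn3b, a sodium channel subunit, and Cacnb3, a calcium channel subunit, rose with separate ages (2.29 and 1.20), whereas Atp1b3, a pump subunit, and Cacna2d2 fell (-0.57 and -1.19). Gabbr2, a subunit of the metabotropic GABA receptor, ranged from 0 to 1.47 CPM at E13 (median 0.432) and 9.84 to 21.3 CPM at E16 (median 14.8). All E16 libraries were above E13 (log2 fold change 4.43, SE 0.38, padj = 9.42e-10). Its partner Gabbr1 rose too (1.40). Slc12a2 and Slc12a5 encode the chloride transporters NKCC1 and KCC2 that set the effect of GABA. Slc12a2 was not called (log2 fold change 0.14, SE 0.15, padj = 0.438), and Slc12a5 rose with overlapping ages (log2 fold change 0.76, SE 0.31, padj = 0.0367).

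The switch of chromatin and splicing factors from progenitors to neurons was marked on the progenitor side. All 10 progenitor genes fell (median -0.97), and of 19 neuronal genes 12 rose and 3 fell (median 0.72). Rest, which represses neuronal genes in progenitors, ranged from 86.8 to 114 CPM at E13 (median 93.3) and 17.7 to 21.5 CPM at E16 (median 19.8). No E16 library came near the E13 range (log2 fold change -2.29, SE 0.10, padj = 1.04e-14). Ptbp1, a splicing repressor, Actl6a, a subunit of the progenitor BAF complex, Ezh2, the H3K27 methyltransferase, and Dnmt1, the maintenance DNA methyltransferase, fell (-1.07, -1.06, -1.10 and -0.41). Actl6b, the neuronal counterpart of Actl6a, Smarca2, a BAF ATPase, Dpf1, a neuronal BAF subunit, and Celf5, a splicing factor, rose (2.44, 1.56, 1.44 and 1.59). Ptbp2, the neuronal counterpart of Ptbp1, and Elavl4, an RNA-binding protein, fell with overlapping ages (-0.26 and -0.44), Dnmt3a, a de novo methyltransferase, fell (-0.94), and Elavl3 rose (0.61).

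Reelin, secreted at the cortical surface, acts on migrating neurons through DAB1, which is phosphorylated by Src kinases and then degraded through ubiquitin ligases. Of 29 genes of this pathway 12 rose and 4 fell, beside 29.3% and 30.4% of all tested genes (median 0.15). Dab1 was measured at 150.1 to 186 CPM at E13 (median 170.3) and 298 to 384 CPM at E16 (median 362). The ages were separate (log2 fold change 1.04, SE 0.08, padj = 8.51e-11). Pafah1b3, of the LIS1 complex, and Pik3r1, a subunit of PI3 kinase, rose (0.66 and 1.12), and Rnf7, of the ligase that degrades DAB1, Itga5, an integrin, and Crk, an adaptor, fell (-0.56, -1.07 and -0.27). Reln itself was not called (log2 fold change -1.05, SE 0.50, padj = 0.088), nor was Cfl1, the actin-severing cofilin (log2 fold change 0.15, SE 0.07, padj = 0.0751).

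Matrix and adhesion genes encode what surrounds and binds migrating neurons. Of 100 extracellular matrix genes on the list 78 were tested, of which 24 rose and 30 fell, beside 29.3% and 30.4% of all tested genes (median -0.46, and -0.34 without the 7 that are also markers of other cell types). Their summed level was higher at E16, with 2851 to 3488 CPM at E13 (median 2989) and 3543 to 4306 CPM at E16 (median 4076), without overlap. The largest increases within this sum were of Ncan and Mfge8, a secreted glycoprotein, singled out after values were seen, with medians of 346.5 and 86.7 CPM at E13 and 987 and 419 CPM at E16, nearly as much as the increase of the sum. Spock1 and Ncan, proteoglycans, and Sdc3, a syndecan, rose (3.48, 1.44 and 1.92). Col18a1, a basement membrane collagen, Gpc4, a glypican of progenitors, and Fbln1, a fibulin, fell (-2.90, -1.22 and -1.13). Of 80 adhesion genes tested 43 rose and 17 fell (median 0.52), among them Pcdh8, a protocadherin that rose (2.22), and Gja1, the gap junction protein of radial glia, Mcam and Cldn12, which fell (-2.23, -2.48 and -1.55).

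**Figure D2:**
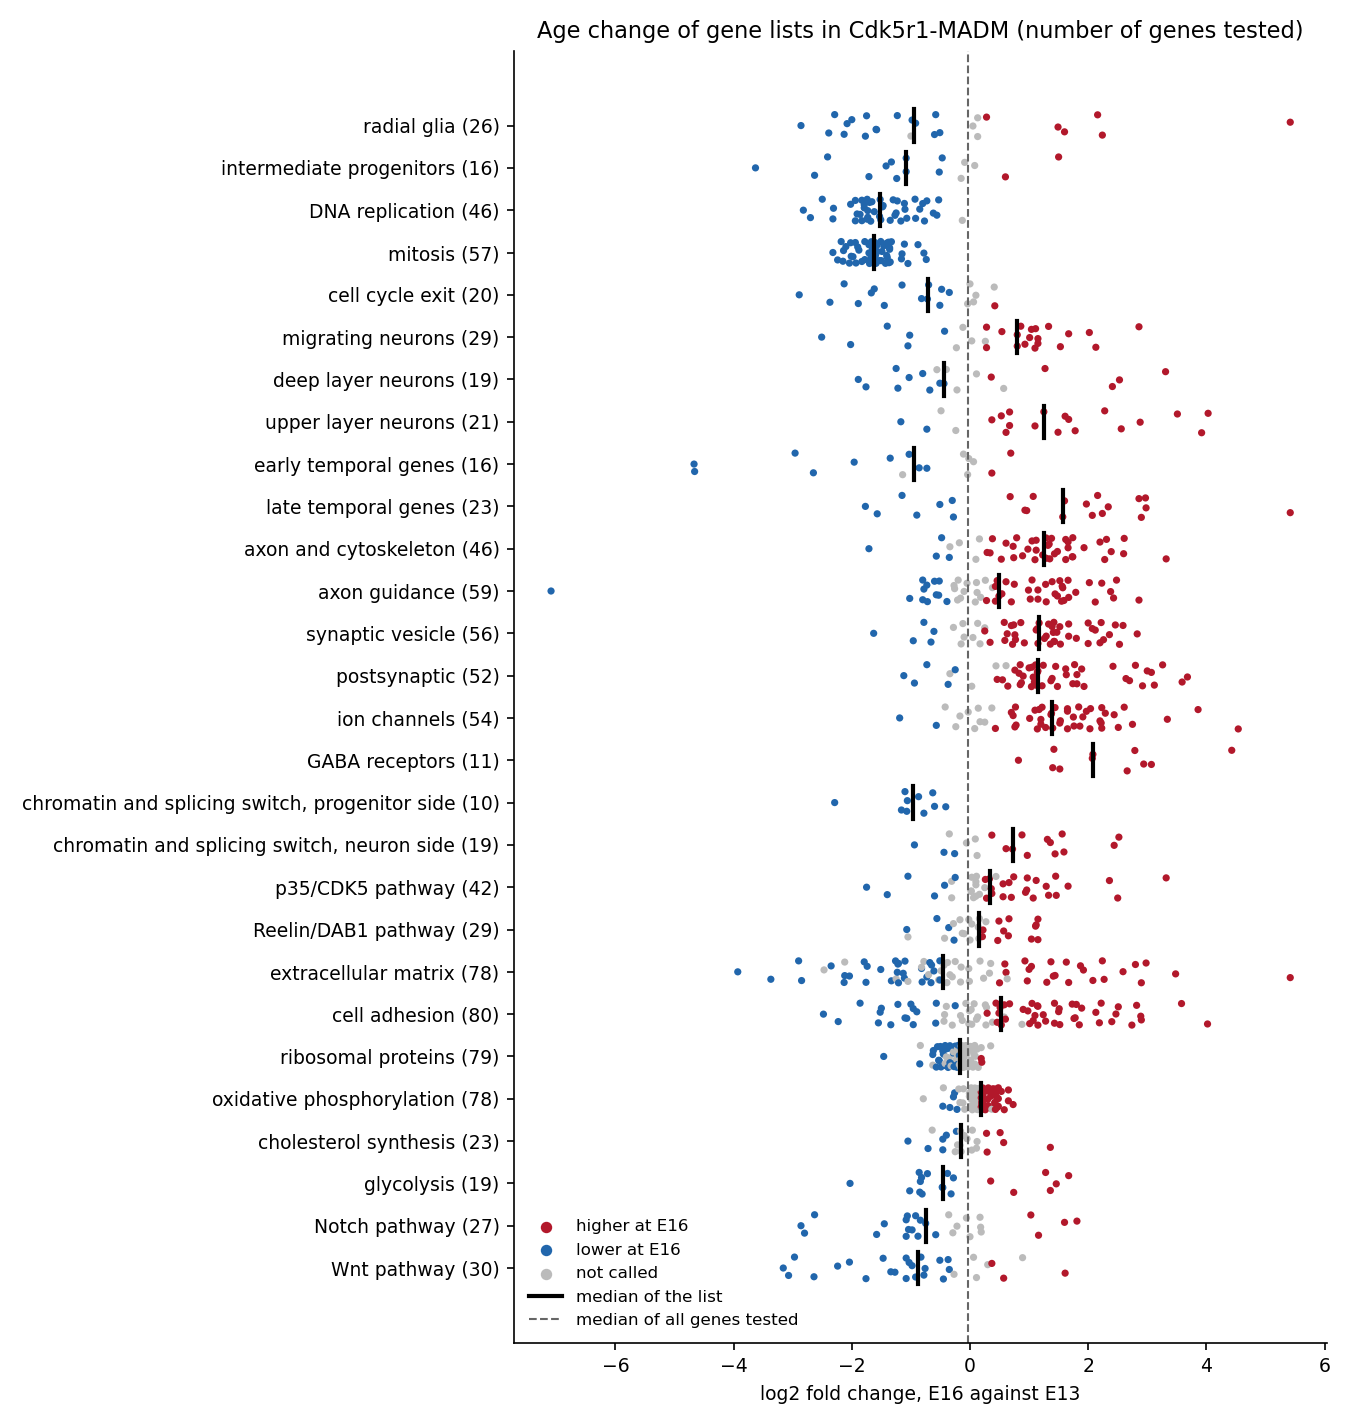
Log2 fold change from E13 to E16 in Cdk5r1-MADM (horizontal axis) of each tested member of 28 gene lists, with red points for genes called higher, blue for genes called lower and grey for genes not called. Black bars are list medians and the dashed line is the median of all genes tested, with cell cycle lists on the left and axon, synapse and channel lists on the right.

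Of 79 ribosomal protein genes 2 rose and 29 fell, beside 29.3% and 30.4% of all tested genes. Their median was -0.17, and with all 16 libraries its sign turned. Rps27l, Rps19 and Rpl14 fell and Rps7 and Rpl38 rose by small amounts (-0.49, -0.52, -0.39, 0.19 and 0.20). Of 78 oxidative phosphorylation genes 37 rose and 5 fell (median 0.19), with Ndufb10, Ndufa8 and Uqcc2, of respiratory complexes I and III, among those that rose (0.65, 0.58 and 0.53) and Ndufa12, Atp5a1 and Ndufs1 among those that fell (-0.46, -0.22 and -0.26). Of 19 glycolysis genes 13 fell and 6 rose (median -0.46). Hk2, the hexokinase of dividing cells, ranged from 48 to 85.1 CPM at E13 (median 63.7) and 11.6 to 25.8 CPM at E16 (median 15.5), with all E16 libraries the lower (log2 fold change -2.03, SE 0.16, padj = 3.72e-10). Hk1, the hexokinase of neurons, Eno2, the neuronal enolase, and Slc2a3, the neuronal glucose transporter, rose (1.46, 1.67 and 1.36), and Pkm, the pyruvate kinase with the most reads of the list, and Tpi1 fell (-0.81 and -0.85). Of 23 cholesterol synthesis genes 5 were higher and 6 lower (median -0.15), near the shares of 29.3% and 30.4% of all tested genes, with Tm7sf2, Fdft1 and Nsdhl, enzymes of the pathway, higher (1.36, 0.51 and 0.57), and Insig1, a sterol sensor, and Sc5d lower (-0.71 and -0.46).

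Among genes with separate ages and at least 20 CPM, those with the largest fold changes were of several kinds. Aldh1l1, an astrocyte marker, was found at 0 to 2.62 CPM at E13 (median 0.453) and 49.6 to 89.5 CPM at E16 (median 66.5). Its ages were separate (log2 fold change 6.24, SE 0.43, padj = 1.51e-08). Of the 7 tested genes of the astrocyte list 4 rose and 3 fell (median 1.23), while the median of their summed level was lower at E16. Slco1c1, a thyroid hormone transporter of astroglia, and Olig1, a factor of the oligodendrocyte lineage, rose (5.88 and 5.76), as did the neuropeptide genes Tac2, Nts and Npy (6.15, 5.56 and 5.11). Npy is also on the interneuron marker list, of which 10 of 12 tested genes rose, and the part of these cells in its rise was not tested. Adamts2, a protease that processes procollagen, Fam19a2, a secreted neuronal protein, and Trim47, a ubiquitin ligase, rose likewise (5.65, 5.07 and 5.67). Among the largest falls were Dmrta1 and Dmrt3, factors of the medial cortex, Wfdc2, a secreted protein, Car14, a carbonic anhydrase, and St18, a zinc finger factor (-4.55, -3.71, -4.37, -3.22 and -3.21). Cckar, a cholecystokinin receptor, and Hbb-y, embryonic globin, were at or near 0 at E16, with 18.6 to 38.5 CPM at E13 (median 27.7) and 0 to 0.683 CPM at E16 (median 0) for Cckar and 0.44 to 333 CPM at E13 (median 0.974) and 0 to 0.437 CPM at E16 (median 0) for Hbb-y. Only E13 replicate 4, which had the highest erythroid markers, held much Hbb-y, and the other E13 libraries had 0.44 to 8.52 CPM.

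Genes of the projection neuron lineage were present in all libraries, with 11 of 11 tested, 3 higher and 5 lower, and a summed level of 2548 to 2930 CPM at E13 (median 2673) and 2791 to 3118 CPM at E16 (median 3013). Neurod6, a factor of these neurons with the most reads of the list, rose (log2 fold change 0.80, SE 0.09, padj = 6.79e-08). Markers of cells outside the lineage had lower sums but were not absent, and erythroid markers were high in all E16 libraries but replicate 3. Of 14 microglia markers 8 were tested and 8 rose, with 6.47 to 15.6 CPM at E13 (median 10.5) and 13.9 to 116 CPM at E16 (median 65.2), and no marker was at 0 in all libraries. Of 18 interneuron markers 12 were tested, 10 higher and 1 lower, with 106 to 212 CPM (median 195) and 149 to 313 CPM (median 226). Of 12 erythroid markers 8 were tested and 2 fell, with 11.3 to 942 CPM (median 25.6) and 11.4 to 513 CPM (median 443), with the most reads over all libraries for Hbb-bs, which was not called. Of 12 endothelial markers 4 were tested and 1 fell, with 9.84 to 158 CPM (median 15.4) and 16.5 to 96.3 CPM (median 23.2), with the most reads over all libraries for Cldn5. Of 13 markers of fibroblasts and meninges 6 were tested and 3 fell, with 11.5 to 294 CPM (median 21.6) and 9.56 to 37.8 CPM (median 16.6), with the most reads over all libraries for Col1a2. Choroid plexus markers, 2 of 9 tested and neither called, gave 14.6 to 50.2 CPM (median 35.4) and 16.3 to 332 CPM (median 34.8), with the most reads over all libraries for Ttr, with Prlr at 0 in all libraries. The part of these cells in the results was not tested.

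Markers of other cells of the cortex moved in both directions. Of 9 astrocyte markers 7 were tested, 4 higher and 3 lower, with 753 to 945 CPM at E13 (median 881) and 507 to 757 CPM at E16 (median 621), with the most reads over all libraries for Aldoc. Of 10 markers of oligodendrocyte precursors 5 were tested, 3 higher and 1 lower, with 55.8 to 95.9 CPM (median 74.5) and 85.6 to 259.9 CPM (median 114). Subplate markers summed to 378 to 463 CPM (median 406) and 164 to 244 CPM (median 209), without overlap, with 1 of 6 tested higher and 3 lower. Of 9 Cajal-Retzius markers 6 were tested, 1 higher and 2 lower, with 65.6 to 114 CPM (median 91.4) and 54.2 to 91.1 CPM (median 65.6), with the most reads over all libraries for Nhlh2, which fell (-1.75). Of 10 mural markers 5 were tested, 1 higher and 1 lower, with 46.1 to 72.7 CPM (median 59.5) and 23.4 to 55.0 CPM (median 34.1), with the most reads over all libraries for Notch3, which is also expressed in progenitors and fell (-1.45). Of 8 markers of the cortical hem and antihem 6 were tested and 4 fell, with 80.9 to 111 CPM (median 100) and 53.6 to 71.2 CPM (median 65.1), with the most reads over all libraries for Sfrp2. Of 20 genes of dissociation and stress 18 were tested, 7 higher and 6 lower, beside 29.3% and 30.4% of all tested genes. They summed to 2534 to 3099 CPM (median 2649) and 2257 to 2898 CPM (median 2342), with the most reads over all libraries for Jun. Jun, Ier2 and Atf3 were among those that fell (-0.94, -1.21 and -2.94), and Fos, Fosb and Egr1 among those that rose (1.27, 2.09 and 1.32). None of these lists had a marker at 0 in all libraries, and their part in the results was not tested.

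**Figure D3:**
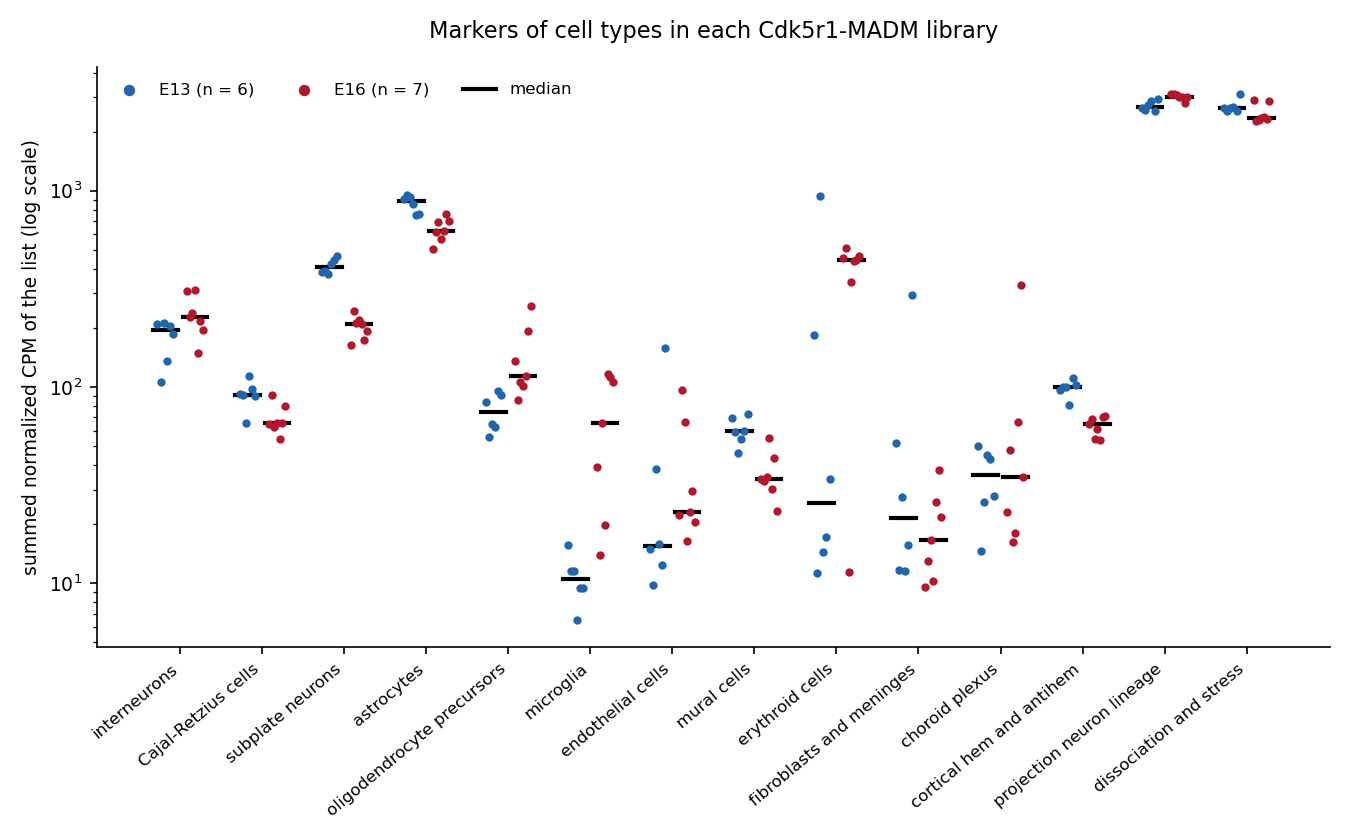
Summed normalized CPM (vertical axis, log scale) of 14 marker lists in each Cdk5r1-MADM library at E13 and E16, with points for libraries. Lists of the projection neuron lineage and of stress are highest, vessel and choroid plexus markers are low in most libraries, and erythroid markers are high in all E16 libraries but 1.

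Of 11724 protein-coding genes tested, 3548 rose and 3670 fell. The median span was 25757 bases for all, 27984 for genes called higher, 26151 for genes called lower and 24215 for genes not called, and 36088 and 29129 for those beyond a log2 fold change of 1. Spans above 100 kb made up 15.5% of all, 21.8% of genes called higher, 13.1% of genes called lower and 12.6% of genes not called, and beyond that limit 30.3% of the higher and 17.9% of the lower genes. These differences in span were not tested.

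The age change of Cdk5r1-MADM was set beside those of control-MADM and KO-Cdk5r1-MADM in 1 fit of 49 libraries. Across 12794 genes the age changes correlated with r = 0.910 with control-MADM and r = 0.860 with KO-Cdk5r1-MADM, a description over genes of the same libraries. In that fit 5705 genes were called in Cdk5r1-MADM, 6633 in control-MADM and 7071 in KO-Cdk5r1-MADM, and the 5022 shared with control-MADM (88% and 75.7% of each) and the 4926 shared with KO-Cdk5r1-MADM (86.3% and 69.7%) all had the same sign. No gene had an age change called different from control-MADM by edgeR (0% of genes, smallest padj = 1), where 267 had an unadjusted p < 0.05, with 639.7 expected if none changed, and DESeq2 called 1, Ccl3. Against KO-Cdk5r1-MADM edgeR also called none (0%, smallest padj = 0.142), 1004 had an unadjusted p < 0.05, with 639.7 expected, and DESeq2 called 2, Chst2 and Ccl2. Both chemokine genes are named for these calls, seen in the data. Cdk5r1 ranged from 13.9 to 124 CPM at E13 (median 62.5) and 109.5 to 246 CPM at E16 (median 206.5) in control-MADM, from 15.1 to 30.7 CPM (median 27.4) and 60.2 to 76 CPM (median 69.1) in Cdk5r1-MADM, and from 10.2 to 26.4 CPM (median 16) and 45.7 to 66.2 CPM (median 54) in KO-Cdk5r1-MADM. The ages overlapped only in control-MADM. Its rise with age was not called different from control-MADM (interaction -0.22, edgeR p = 0.472) or from KO-Cdk5r1-MADM (-0.33, edgeR p = 0.319).

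The genes with the smallest interaction p were these. Hes1 had the lower value of age change in Cdk5r1-MADM than in control-MADM (difference -0.88, SE 0.21, edgeR p = 9.09e-05, padj = 1). Klhl2, an adaptor of ubiquitin ligases, and the unnamed gene Gm37194 came next (1.29 and 2.66). Against KO-Cdk5r1-MADM, Chst2, a sulfotransferase, had the higher value (difference 1.64, SE 0.34, edgeR p = 1.11e-05, padj = 0.142), and AI854703 and Dusp15, a phosphatase, the lower (-1.95 and -1.88). In Cdk5r1-MADM alone, Chst2 was measured at 18.8 to 30.5 CPM at E13 (median 26.1) and 37.2 to 80.8 CPM at E16 (median 54.6). Its ages were separate (log2 fold change 1.19, SE 0.16, padj = 1.17e-06).

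List medians were closer between the genotypes for cell cycle, axon and synapse lists than for matrix genes. Medians of some lists of other cells, among them fibroblasts, blood and vessels, were further apart as well. In Cdk5r1-MADM, control-MADM and KO-Cdk5r1-MADM the medians were 1.17, 1.06 and 1.54 for synaptic vesicle genes. For postsynaptic genes they were 1.15, 1.12 and 1.43. The median of extracellular matrix genes was -0.46 in Cdk5r1-MADM, against 0.19 in control-MADM and 0.75 in KO-Cdk5r1-MADM. Leaving out markers of other cell types made it -0.34, 0.12 and 0.35. Fibroblast markers had medians of -1.93, 0.95 and 2.28, erythroid markers of 1.03, 3.07 and 4.72, and mural markers of 0.20, 1.64 and 2.83 in this order. Among the E13 libraries of Cdk5r1-MADM, replicate 8 stood apart with 294.2 CPM of fibroblast markers (others 11.5 to 52). Replicate 4 stood apart with 942.0 CPM of erythroid markers (others 11.3 to 183.8). In Cdk5r1-MADM the mural median turned sign under 7 settings, among them leaving out E13 replicate 6, E13 replicate 7 or E16 replicate 4, and the fibroblast median turned with a mean count above 50. The endothelial median of Cdk5r1-MADM was 0.17 over 6 tested markers in the fit of 49 libraries and -0.51 over 4 in that of 13. In the latter it turned sign without E13 replicate 8, without the 3 libraries with high markers, and with the mitochondrial class as a covariate. The choroid plexus median was -0.57 over 5 tested markers in the fit of 49 libraries and 0.77 over 2 in that of 13. These differences between medians were not tested.

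**Figure D4:**
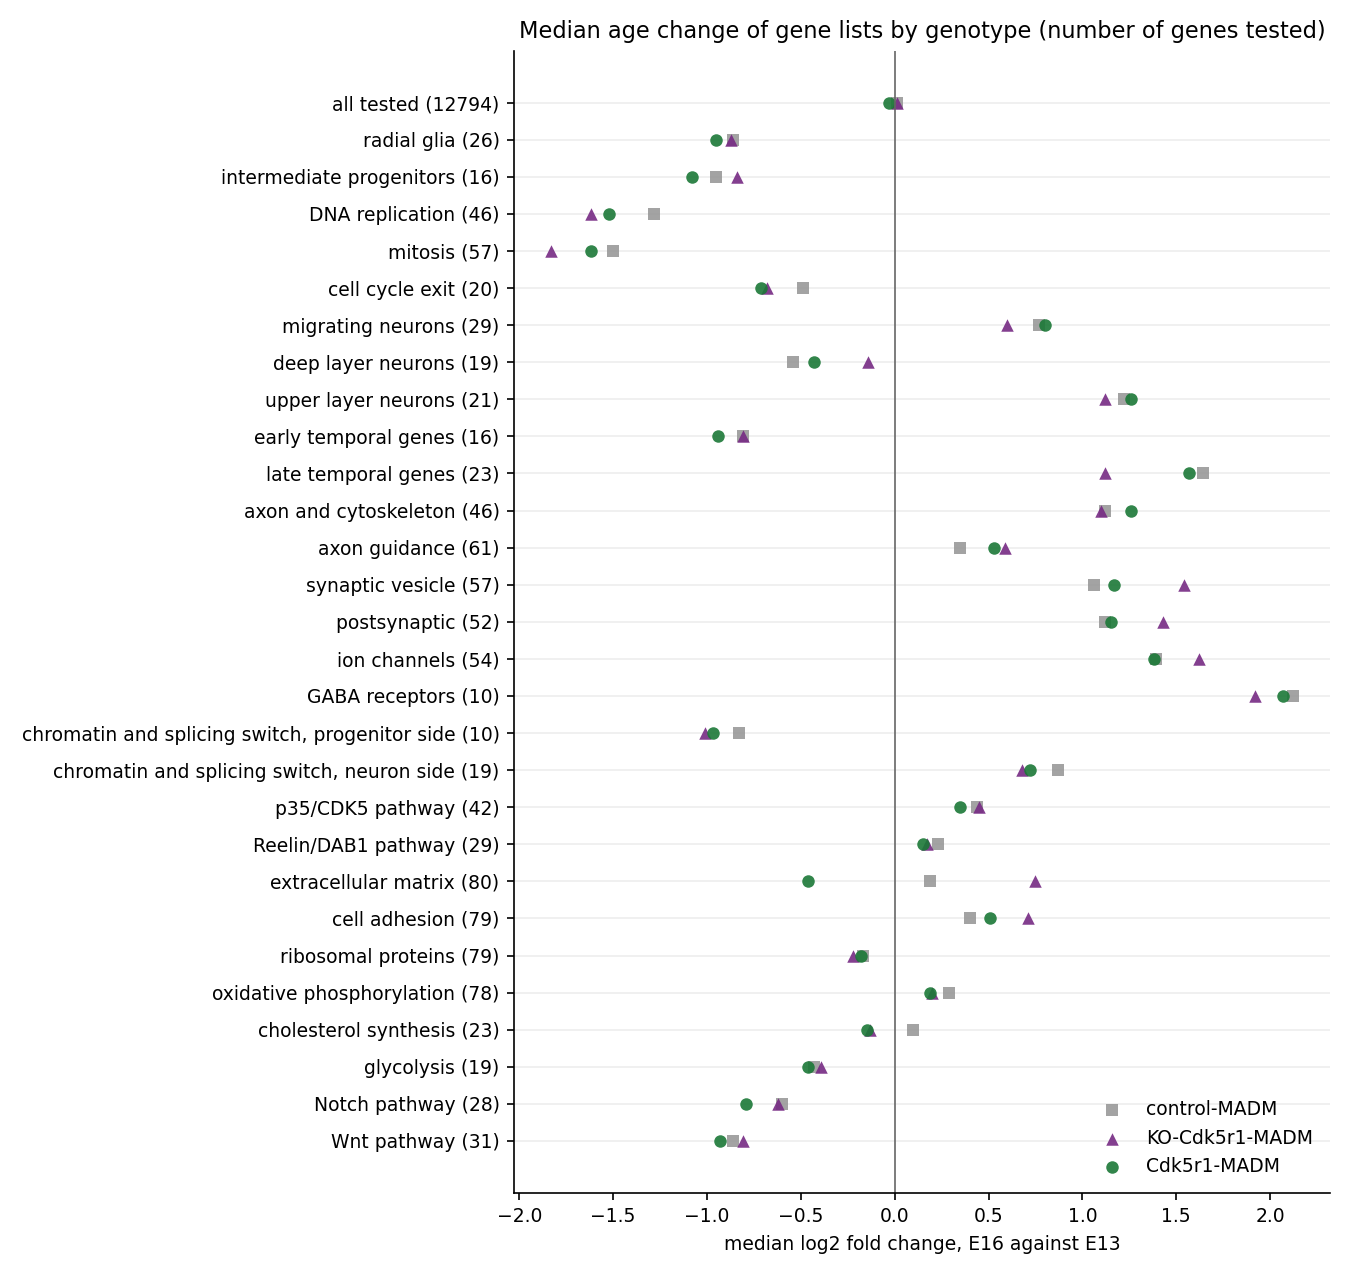
Median log2 fold change from E13 to E16 (horizontal axis) of all genes tested and of 28 gene lists, with a colored point for each of the 3 genotypes. The points of most gene lists lie close together, and those of extracellular matrix genes lie furthest apart.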

How the data were processed

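Gene counts came from tables deposited by the authors, made per the submitters' processing notes with STAR (version not given) on mm10 (GRCm38), and downstream with R 3.6.1. The unstranded column was used. Over the 13 libraries 55.34% of reads fell on genes, 12.13% outside genes, 5.02% on several genes and 27.51% were unmapped. Counts were fitted with edgeR 4.0.16 (TMM, robust quasi-likelihood F test) for 12781 genes with a mean count above 10, and called at a Benjamini-Hochberg padj < 0.05. Levels are normalized counts scaled to library size (CPM), not divided by gene length. DESeq2 1.42.0 was an alternative. The members and lists were chosen with earlier results of these data known. Named genes are Cdk5r1, Cdk5, Cdk5r2, set pairs, the 10 called genes per direction with the smallest padj, the 10 with the largest fold change among those with separate ages and at least 20 CPM, up to 3 called genes per list and direction, the gene of each list with the most reads, and the 3 smallest p of each interaction. Some genes that this rule takes are not reported here. Dll1, Ube2c, Tuba4a, Tuba1a, Ptbp1 and Hes5 share over 20% of their exon bases with other genes.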

Additional observations from a re-analysis of the deposited data

Results flagged for a closer look

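Of 514 values compared within their age, 37 (7.2%) were set apart from the other libraries by a gap that about 1 in 20 groups would show by chance. Markers of other cells gave the largest gaps. E13 replicate 4 had 942.0 CPM of erythroid markers (others 11.3 to 183.8), with Hbb-y at 332.9 and Hbb-bs at 184.1, and E16 replicate 3 had 11.4 (others 341.5 to 513.2) with Hbb-bs at 0. E13 replicate 8 had 158.2 CPM of endothelial markers (others 9.84 to 38), 294.2 of fibroblast markers (others 11.5 to 52) and 3099 of stress genes (others 2534 to 2655), with Cldn5 at 69.1 and Col1a2 at 63.2. E16 replicate 7 had 331.8 CPM of choroid plexus markers (others 16.3 to 66.4), with Ttr at 306.9, and 2791 of projection neuron lineage genes (others 3007 to 3118). The cell cycle exit list reached 5114 CPM in E13 replicate 4 (others 4621 to 4729), where Npy was 9.98 (others 0.164 to 1.95).

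Other genes were highest or lowest in a single library. In E16 replicate 7 these were Ntng2 (134.9 CPM), Ezh2 (198.2), Gja1 (26.0), Rps7 (177.6) and Hk2 (25.8). In E13 replicate 1 they were Fgfr3 (377.8), Dnmt3a (277.8) and Rnf7 (65.4), in E13 replicate 6 Cntn2 (290.0), Cldn12 (79.9) and Rfng (100.5), in E13 replicate 3 Ccnd2 (1198) and in E13 replicate 7 Ezh2 (411.2). In E16 replicate 8 they were Trim47 (47.1) and Fzd9 (48.4), in E16 replicate 4 Ncaph (37.7) and St18 (7.70), in E16 replicate 6 Crabp2 (0), Sdc3 (187.4) and Gm37194 (1.55), and in E16 replicate 2 Robo3 (0.228, others 0) and Bcl11b (223.8).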

How the results depend on the processing

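Leaving out 1 library at a time gave 3591 to 3777 genes higher and 3671 to 3839 lower. With all 16 libraries the counts were 2083 and 1810, and 47.8% of the calls were kept with the same sign. With a limit of 1 on the absolute log2 fold change, which by construction takes fewer genes, the counts were 1527 and 1189. With replicate block they were 3585 and 3661, although the replicate numbers did not pair libraries (correlations of libraries with the same number 0.07, 0.021, -0.096, 0.078, 0.015 and 0.021). DESeq2 called 1 gene in the interaction with control-MADM and 2 in that with KO-Cdk5r1-MADM, where edgeR called 0. Against KO-Cdk5r1-MADM, edgeR called 1, Chst2, with only the 4 groups and again 1, Chst2, with the outside-genes share as covariate, and 0 to 9 when leaving out 1 library, the 9 without KO-Cdk5r1-MADM E13 replicate 4. With all 16 libraries the log2 fold changes of Hes6 (0.17), Cdk4 (0.03), Ptbp2 (0.77), Rps27l (0.29), Atp5a1 (0.11) and Atp5b (0.10) had the other sign, none called. Cldn5, not called, reversed with replicate block (0.10), the outside-genes covariate (0.53) and without E13 replicate 8 (2.29, range -1.10 to 2.29 leaving out 1 library). Chosen after seeing the data were the Xist class (Cldn5 0.04), the mitochondrial class (Cldn5 1.80; 3247 genes higher and 3297 lower) and the fit of 10 libraries (Cldn5 3.81). The cause was not tested. Fewer genes were tested with a mean count above 50, with 3130 higher and 3150 lower, and after thinning counts to the smallest library total 3573 were higher and 3527 lower.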

Other observations

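The shares of lincRNA and antisense genes called were below those of all genes, though close for lincRNA genes lower at E16. These differences were not tested. Of 198 tested lincRNA genes 45 were higher and 57 lower at E16, and of 165 antisense genes 44 were higher and 30 lower, beside 29.3% and 30.4% of all tested genes. Of the gene names mt-Nd3 and Gm28438, mt-Nd3 held the more reads in all 7 E16 libraries and in 3 E13 libraries, and Gm28438 in the other 3 E13 libraries (replicates 6, 7 and 8), where mt-Nd3 was at 0. Whether these are reads of the same locus under different annotations was not tested. Mitochondrial genes held 2.17 to 2.87% of gene reads at E13 (median 2.59%) and 2.1 to 2.79% at E16 (median 2.34%; exact permutation p = 0.455). Xist, the marker of female cells, was above 10 CPM in 3 libraries of each age.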
